A study of Mus musculus with 21 samples.

Results

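Genes of the unfolded protein response, a set of 32 chosen by function, were followed through 21 libraries of mouse dorsal root ganglion RNA. The set holds 13 chaperones and folding enzymes of the endoplasmic reticulum (ER), 7 degradation factors, 4 sensors and their transcription factors, and 8 genes of the PERK and ATF4 branch. Of the 32 genes, 31 had a row in both deposited count tables, which share 24381 genes, and all 31 passed the filter on low counts in every comparison. Ddit3 (CHOP), a pro-apoptotic factor of the PERK branch, was not analysed here.

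Every mouse in the study carried a floxed Tmem45b gene, so no group is wild type. By sample title, Tmem45b-flox mice (flox) have no Cre named. Tmem45b-flox::Mrgprd-cre mice (cKO) also had Cre driven from Mrgprd, a receptor gene of nonpeptidergic nociceptors. The flox libraries of the LDRG and CFA sets carry WT in their names. Untreated libraries fall into 2 sets by library name: LDRG, with 3 flox and 3 cKO libraries, and con/ko, with 3 flox and 4 cKO libraries deposited in a separate table. A further 4 libraries labelled flox and 4 labelled cKO came from a CFA model, CFA usually standing for complete Freund's adjuvant, an emulsion that causes inflammation. The sources used here give no age, no time after CFA and no statement that a library is 1 animal, so p-values measure the spread of these libraries alone and may reflect technical variation. Cre acts only in the Mrgprd lineage while RNA came from the whole ganglion. Fewer cells of a type and less RNA per cell therefore cannot be told apart.

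The ER folds secreted and membrane proteins, and sensory neurons make large amounts of both. When unfolded proteins collect, the sensors ATF6, IRE1 (gene Ern1) and PERK (gene Eif2ak3) are released from the chaperone BiP (gene Hspa5). Cleaved ATF6 and the spliced form of XBP1 raise chaperones and degradation factors, while PERK slows translation and favours synthesis of ATF4, which raises genes of amino acid supply and feedback. Splicing of Xbp1 and phosphorylation of the sensors are not seen in counts per gene. The series title names ER calcium regulation by TMEM45B, and many ER chaperones also bind calcium.

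Library totals ranged from 53.3 M to 72.4 M counts. Levels are given as CPM, counts scaled to TMM-adjusted library size. Tmem45b was at 124 to 145 CPM in LDRG flox and 59.9 to 72.2 in LDRG cKO libraries, and at 148 to 179 and 68.6 to 89.1 in con/ko flox and cKO libraries. The CFA libraries overlapped, with 65.9 to 136 CPM in those labelled flox and 61.8 to 108 in those labelled cKO, a difference of log2 -0.21 (SE 0.26, adjusted p = 0.96). CFA libraries are therefore called by their labels throughout. Xist was at 283 to 459 CPM in all 8 CFA libraries and at 0.10 to 0.33 in all 6 LDRG libraries, so CFA and sex cannot be told apart in that contrast, and the con/ko set held libraries of both kinds. The summed level of 9 sensory neuron markers was 13515 to 14331 CPM in LDRG, 11085 to 13049 in CFA and 9638 to 11409.9 in con/ko libraries, with no marker at 0. Drgx, another neuron marker, was not analysed here. Summed red cell markers were 34.0 to 53.9, 209 to 627 and 1631 to 4475 CPM in the same order.

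The ER stress element (ERSE) is the promoter site bound by ATF6 and XBP1 together with NF-Y. RefSeq promoter windows on GRCm38.p6, from 250 bases before to 50 bases after the start site, were found for 28 of the 32 genes (none for Manf, Hyou1, Derl1 and Atf6). The ERSE letters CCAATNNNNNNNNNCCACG, searched on both strands, lay in 8 of the 28: Hspa5, Hsp90b1, Dnajc3, Creld2, Pdia6, Ero1b, Syvn1 and Derl3. Over all 27025 genes with a window, 0.137% held them. The shorter ERSE-II, ATTGGNCCACG, lay in Dnajb11 and Herpud1, against 0.0444% of genes. The XBP1 core TGACGTGG and the ATF4 composite letters TGATGNAAT, searched the same way, matched none of the 28, against 0.714% and 1.08% of genes. The ATF4 search fixed the last base as T. The Asns window held the same letters with C in that place, as did Chac1 and Herpud1 on the - strand of the window. A looser form was not searched over all genes, so a lack of ATF4 sites is not read from this search. No window of the sensors or of the PERK and ATF4 branch held either ERSE form. A match describes letters and does not show binding.

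The sites shown are those of the 6 matching genes whose values are given for every library further on: Hspa5, Hsp90b1, Creld2, Pdia6, Herpud1 and Derl3. Each is shown 5′ to 3′ on the gene's strand with 20 bases on either side, the motif in capitals, and positions counted from the start site. On the - strand the capitals read as the reverse complement of the motif.
Hspa5, ERSE on the + strand of the window, first base at -65, chr2:34772005-34772063, + strand: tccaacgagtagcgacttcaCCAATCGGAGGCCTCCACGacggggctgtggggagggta
Hsp90b1 upstream site, ERSE on the + strand of the window, first base at -212, chr10:86705618-86705676, - strand: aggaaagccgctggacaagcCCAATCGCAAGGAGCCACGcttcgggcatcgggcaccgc
Hsp90b1 downstream site, ERSE on the - strand of the window, first base at -107, chr10:86705513-86705571, - strand: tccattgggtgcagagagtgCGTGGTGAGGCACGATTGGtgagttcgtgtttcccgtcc
Creld2, ERSE on the - strand of the window, first base at -126, chr15:88819500-88819558, + strand: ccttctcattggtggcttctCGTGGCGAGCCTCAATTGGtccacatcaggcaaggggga
Pdia6, ERSE on the + strand of the window, first base at -98, chr12:17266471-17266529, + strand: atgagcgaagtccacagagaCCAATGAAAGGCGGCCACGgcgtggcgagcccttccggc
Herpud1, ERSE-II on the + strand of the window, first base at -52, chr8:94386357-94386407, + strand: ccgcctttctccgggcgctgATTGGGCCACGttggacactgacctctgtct
Derl3, ERSE on the - strand of the window, first base at -156, chr10:75893222-75893280, + strand: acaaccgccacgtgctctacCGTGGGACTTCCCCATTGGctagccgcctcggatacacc

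Levels of the 31 genes spanned a wide range in the ganglion. Per kilobase of exon, the highest median over the 21 libraries belonged to Hsp90b1 (GRP94, the ER form of HSP90), at 112 CPM per kb. Hspa5, the master chaperone BiP, followed at 85.0 CPM per kb, then Asns (asparagine synthetase) at 70.5 and Atf4 at 59.8. The lowest were Derl3 at 0.171, Sec61b at 1.52, Trib3 at 1.55 and Sesn2 at 1.57 CPM per kb. Derl3 encodes a derlin known from secretory cells, Sec61b a subunit of the protein channel into the ER, and Trib3 and Sesn2 stress-inducible regulators. The steadiest gene was Hyou1, an ER chaperone of the HSP70 family, whose CPM had a coefficient of variation of 4.29% over all libraries. The map of levels by library shows Derl2, Creld2, Dnajb9 and Sec61b as the most variable.

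**Figure D1:**
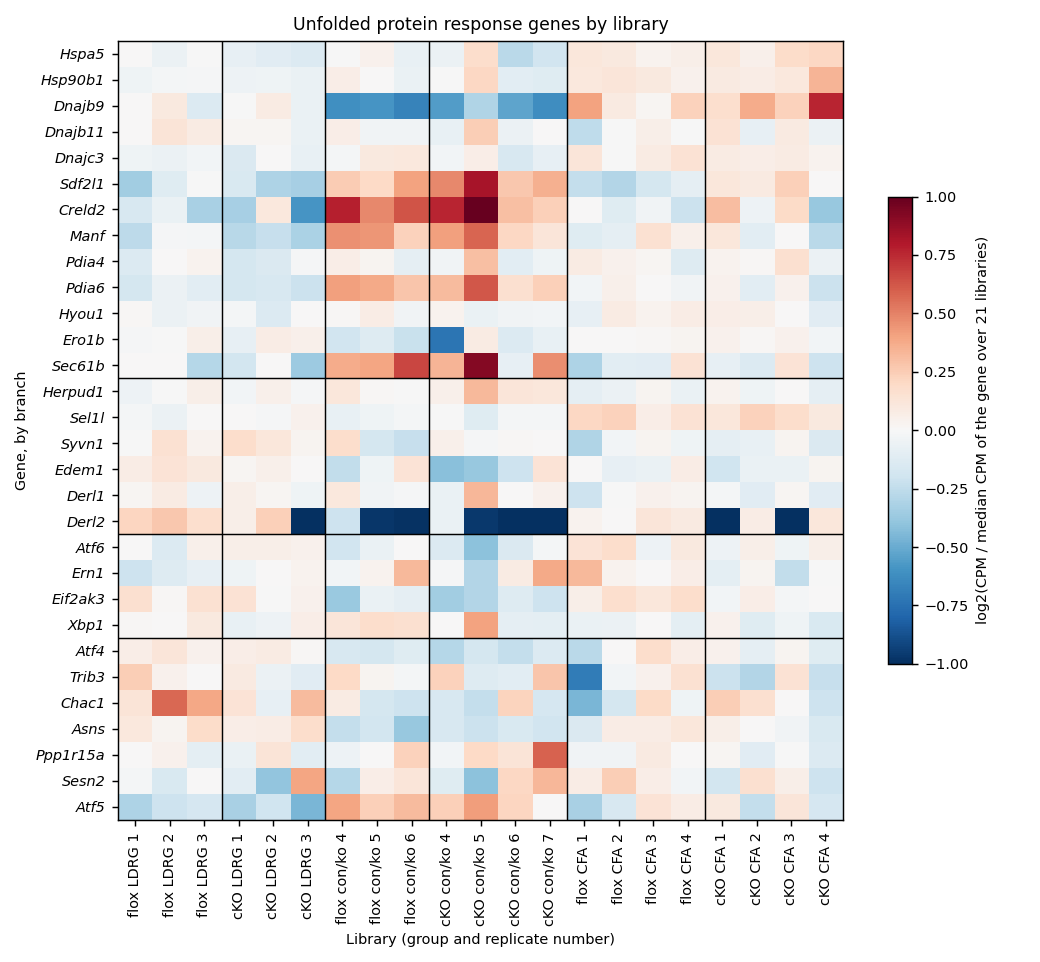
Level of 30 genes (rows, by branch; Derl3, under 1 CPM, is left out) in each of the 21 libraries (columns, by group), as log2 of CPM over the gene's median; values beyond 1 either way take the end colours. The con/ko columns are red for Creld2, Manf, Pdia6 and Sdf2l1 and blue for Dnajb9. Derl2 shows dark cells in cKO LDRG 3, cKO CFA 1 and 3 and most con/ko libraries.

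The first question was whether deletion of Tmem45b in Mrgprd-lineage neurons went with a change in these genes in untreated ganglia. None of the 31 genes was called (edgeR quasi-likelihood test, fitted differences given as log2 of the ratio, with name set as a term, Benjamini-Hochberg adjusted p under 0.05). Over all 16706 genes tested, 0.00599% were called, a single gene, which is Tmem45b. No member reached an unadjusted p of 0.05, against 1125 of all genes, and DESeq2 called no member, against 0.239% of all genes. The median difference, cKO minus flox, was -0.02 on the log2 scale over the members and 0.00 over all genes. Of 31 intervals at 95% confidence, 29 lay within 1.5-fold either way, the exceptions being the degradation factors Derl2 and Derl3. The intervals of this and the later genotype comparisons bound RNA of the whole ganglion, not of Mrgprd-lineage neurons alone. A larger change confined to those neurons could lie within them.

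By branch, 2 of 13 chaperones, 5 of 7 degradation factors, 1 of 4 sensors and 3 of 7 PERK and ATF4 genes had a value above 0. Hspa5 differed by log2 -0.08 (SE 0.06, adjusted p = 0.86) and Hsp90b1 by log2 -0.02 (SE 0.05, adjusted p = 0.98). Xbp1 differed by log2 -0.07 (SE 0.07, adjusted p = 0.91), and Atf4 by log2 -0.05 (SE 0.03, adjusted p = 0.84). The nearest to the threshold was Dnajc3 (p58IPK, an inhibitor of PERK), at log2 -0.08 (SE 0.04, adjusted p = 0.79). None of these differences passed the test.

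Among the CFA libraries, labelled cKO and flox groups were likewise not separated at these genes. None of the 31 was called, against 0.0% of all 16116 genes tested (0 genes). At an unadjusted p of 0.05, 2 members and 799 of all genes passed, and DESeq2 called no member, against 0.112% of all genes. The 2 members were Sdf2l1, a partner of ER HSP40 proteins, at log2 0.32 (SE 0.09, adjusted p = 0.94) and Eif2ak3 at log2 -0.12 (SE 0.05, adjusted p = 0.94). Again 29 of 31 intervals lay within 1.5-fold, with Derl2 and Derl3 beyond it. The median over members was 0.00 and that over all genes 0.01.

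For the interaction, the untreated level was taken as the mean of both name sets. This difference between the CFA responses of libraries labelled cKO and flox gave the same count. It was called for 0 of 31 members and for 0.0% of all 16928 genes (0 genes). No member and 707 of all genes had an unadjusted p under 0.05, and DESeq2 called no member, against 0.0827% of all genes. Intervals of 26 of 31 members lay within 1.5-fold, the others being Creld2, Derl2, Derl3, Chac1 and Sesn2. Chaperones lay above 0 in 12 of 13 cases, with a median of 0.08 against -0.01 over all genes, and none of them passed the test.

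**Figure D2:**
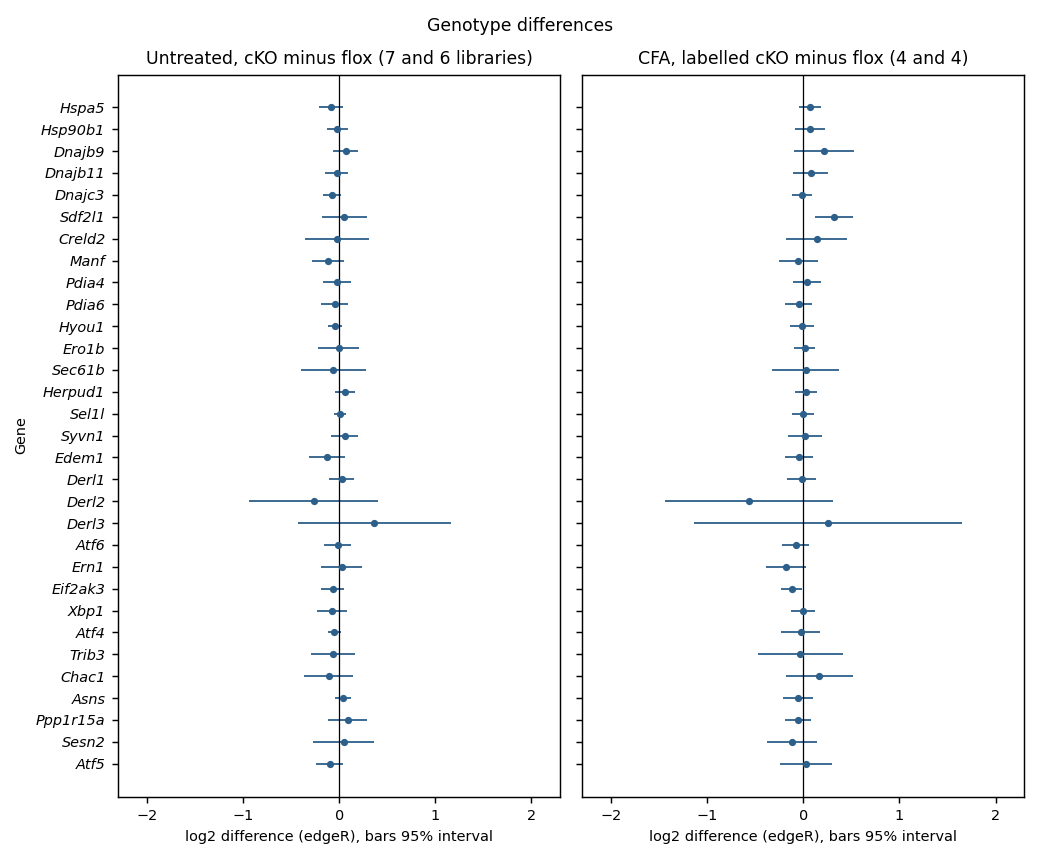
Fitted log2 difference, cKO minus flox, of the 31 genes (points) with 95% intervals (bars), in untreated libraries (left) and among CFA libraries as labelled (right). Points of most genes lie close to 0, and the bars of Derl2 and Derl3 are the widest in both panels.

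CFA libraries were then set against the LDRG set of the same table and against the con/ko set of the other table. Against LDRG, 1 member rose and none fell in flox, where 1.94% of all 16928 genes rose and 1.8% fell. In cKO, 0 members rose or fell, against 0.886% and 0.36% of all genes. In that cKO comparison 8 members and 2791 of all genes had an unadjusted p under 0.05, and DESeq2 called 3 members, Hspa5, Dnajb9 and Sel1l, where it called 4.93% of all genes (834, against 211 with edgeR). With the GC and length offsets described next, 2 members, Sdf2l1 and Atf5, were called higher there, at log2 0.43 (adjusted p = 0.041) and log2 0.34 (adjusted p = 0.039), against 1.78% of all genes in either direction. Against con/ko, 4 members rose and 6 fell in flox (all genes: 16.7% and 17.7%). In cKO 4 rose and 7 fell (all genes: 18.4% and 20.9%). The name sets of untreated mice also differed from each other: con/ko minus LDRG, with both genotypes together, had 6 members higher and 6 lower, where 25.7% of all genes were higher and 23.0% lower. These shares of members are near the shares of all genes. The comparisons with con/ko share its libraries, so their values are given side by side and not as separate evidence.

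The con/ko set also differed from LDRG by gene length and base composition. The median difference over genes, con/ko minus LDRG, was 0.22 in the shortest and -0.09 in the longest of 4 equal groups by transcript length, and -0.15 in the lowest and 0.19 in the highest of 4 equal groups by GC content. With offsets for GC and length in each library, 14 members were called, 8 higher and 6 lower, of which 10 were also called without them (all genes: 24.0% higher and 23.5% lower). With scaling by library totals alone, the median of all genes went from 0.02 to 0.12 and the split of members was 14 higher and 3 lower (all genes: 34.8% and 14.2%). In CFA minus con/ko the same scaling took the median from -0.03 to -0.14 in flox and from -0.04 to -0.16 in cKO. There 3 members then rose and 8 fell in flox, and 1 rose and 10 fell in cKO (all genes: 9.43% and 25.8% in flox, 12% and 31.0% in cKO). CFA minus LDRG also varied by length, with medians of -0.04 in the shortest and 0.09 in the longest group in flox, and -0.03 and 0.08 in cKO. By GC content they were 0.02 in the lowest and -0.02 in the highest group in flox, and 0.10 and -0.03 in cKO. For con/ko against LDRG, name set and deposited table cannot be told apart. Sex was not balanced between the sets either. Xist was at 0 to 320 CPM in con/ko, 0.10 to 0.33 in LDRG and 283 to 459 in CFA libraries.

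**Figure D3:**
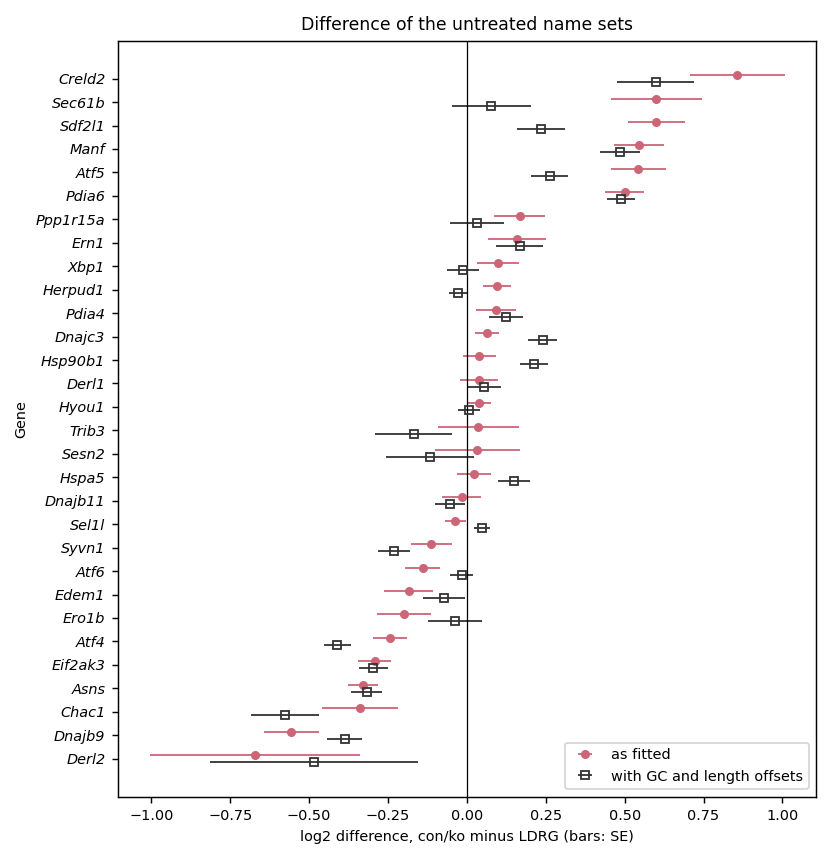
Fitted log2 difference, con/ko minus LDRG, of 30 genes, as fitted (filled circles) and with GC and length offsets (open squares); bars are standard errors, and Derl3 is left out. Creld2, Manf and Pdia6 stay to the right of 0 and Dnajb9, Asns and Eif2ak3 to the left under both, while Sec61b moves from 0.60 to 0.08.

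Results are given by role, chaperones first. Hspa5 (chr2:34771970-34777547, + strand, mm10) encodes BiP, the HSP70 of the ER lumen that holds the sensors inactive. Values are listed in order of replicate number, 1 to 3 for LDRG, 4 to 6 and 4 to 7 for con/ko flox and cKO, and 1 to 4 for CFA. Hspa5 stood at 359.5, 345 and 359 CPM in the LDRG flox libraries and at 339, 332 and 328 in the LDRG cKO libraries. Hspa5 in con/ko libraries measured 359, 369.7 and 342 CPM for flox and 344, 406, 299 and 316 for cKO. Hspa5 in CFA libraries measured 389.8, 385, 368 and 374 CPM for those labelled flox and 389.8, 373, 408 and 414 for those labelled cKO. All 8 CFA libraries lay above all 6 LDRG libraries, whereas the con/ko libraries overlapped both sets. LDRG cKO libraries also lay below LDRG flox libraries, and con/ko groups overlapped. For Hspa5, CFA minus LDRG was log2 0.10 (SE 0.07, adjusted p = 0.53) in flox and log2 0.25 (SE 0.07, adjusted p = 0.099) in cKO, neither called. For Hspa5, CFA minus con/ko was log2 0.09 (SE 0.07, adjusted p = 0.39) in flox and log2 0.22 (SE 0.07, adjusted p = 0.018) in cKO, where the rise was called. That call was lost without cKO CFA 4, at log2 0.19 (adjusted p = 0.055), without cKO con/ko 6, at log2 0.16 (adjusted p = 0.067), and without cKO con/ko 7, at log2 0.18 (adjusted p = 0.060). It was also lost with GC and length offsets, at log2 0.10 (adjusted p = 0.27), with library totals alone, at log2 0.10 (adjusted p = 0.27), and against con/ko libraries with the letter F in their names alone, at log2 0.08 (adjusted p = 0.35).

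Hsp90b1 (chr10:86690209-86705509, - strand), with its pair of ERSE sites, encodes GRP94, which folds integrins and Toll-like receptors. Hsp90b1 stood at 437, 445 and 445 CPM in the LDRG flox libraries and at 433, 437 and 429 in the LDRG cKO libraries. Hsp90b1 in con/ko libraries measured 471, 449.7 and 429.6 CPM for flox and 448, 520.1, 418 and 414 for cKO. Hsp90b1 in CFA libraries measured 483, 489, 482 and 464 CPM for those labelled flox and 478, 473, 483 and 569 for those labelled cKO. Every CFA library again lay above every LDRG library, and con/ko libraries spanned both. Its CFA minus LDRG differences were log2 0.12 (SE 0.07, adjusted p = 0.42) in flox and log2 0.21 (SE 0.07, adjusted p = 0.15) in cKO, and neither passed. With offsets, con/ko minus LDRG moved from log2 0.04 (SE 0.05, adjusted p = 0.56) to log2 0.21 (adjusted p = 6.6e-04).

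Dnajb9 (chr12:44205559-44210326, - strand) encodes ERdj4, an HSP40 partner of BiP that represses IRE1 and is a target of XBP1. Dnajb9 stood at 53.3, 57.0 and 48.5 CPM in the LDRG flox libraries and at 53.1, 56.4 and 50.8 in the LDRG cKO libraries. Dnajb9 in con/ko libraries measured 34.8, 35.4 and 33.6 CPM for flox and 36.3, 43.3, 37.0 and 34.8 for cKO. Dnajb9 in CFA libraries measured 70.6, 56.8, 54.0 and 62.5 CPM for those labelled flox and 59.8, 68.9, 62.5 and 90.2 for those labelled cKO. All 7 con/ko libraries were below all others. LDRG and CFA libraries overlapped, and cKO CFA 4 held the highest level. Dnajb9 was lower in con/ko than in LDRG, the difference being log2 -0.56 (SE 0.09, adjusted p = 5.0e-05). It was higher in CFA than in con/ko libraries by log2 0.82 (SE 0.12, adjusted p = 1.2e-04) in flox and log2 0.90 (SE 0.11, adjusted p = 1.3e-05) in cKO, and each of these 3 calls held under every alternative tried. Against LDRG it was log2 0.20 (SE 0.12, adjusted p = 0.38) in flox and log2 0.40 (SE 0.12, adjusted p = 0.11) in cKO, not called.

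**Figure D4:**
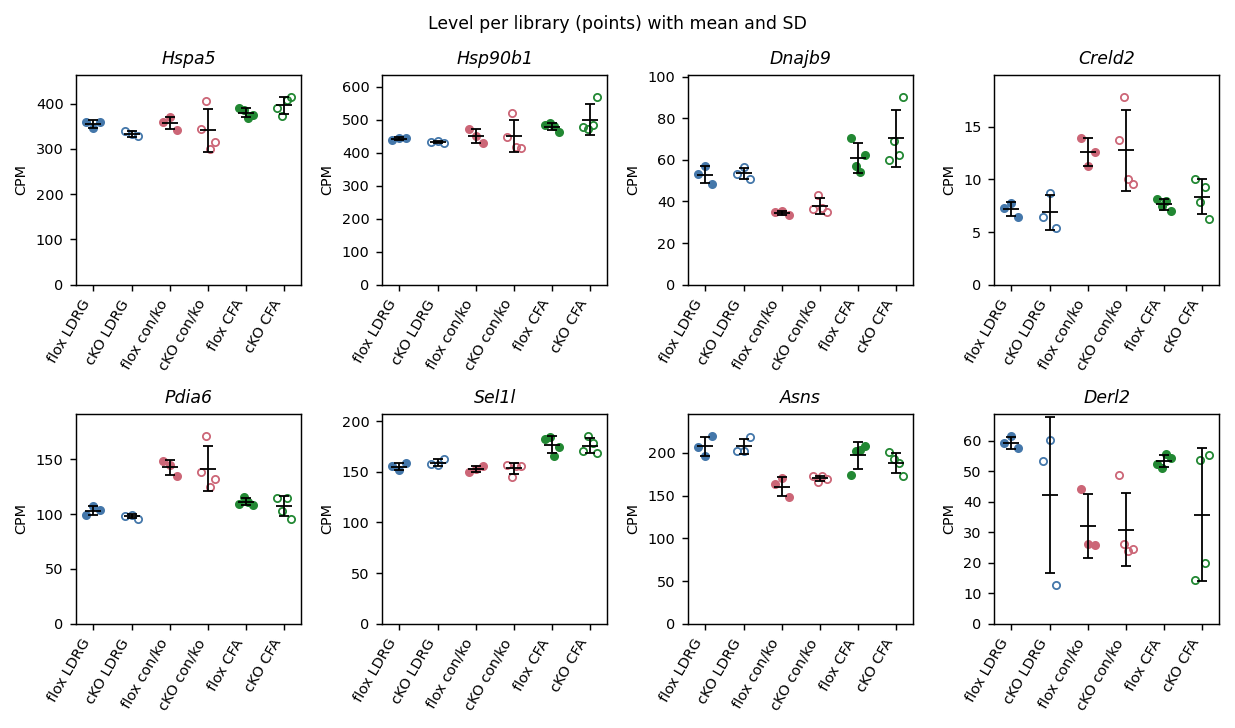
CPM of 8 genes in each library (points; filled for flox, open for cKO) by group, with mean (short line) and SD (bars); every axis starts at 0. Sel1l is higher in the CFA groups, Dnajb9 and Asns are lower and Creld2 and Pdia6 higher in the con/ko groups, and Derl2 has low libraries in 4 groups.

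Creld2 (chr15:88819646-88826683, + strand), which has an ERSE on the - strand, encodes an ER protein with disulfide isomerase activity that is also secreted. Creld2 stood at 7.25, 7.76 and 6.46 CPM in the LDRG flox libraries and at 6.44, 8.73 and 5.40 in the LDRG cKO libraries. Creld2 in con/ko libraries measured 13.9, 11.3 and 12.6 CPM for flox and 13.8, 17.8, 9.99 and 9.57 for cKO. Creld2 in CFA libraries measured 8.11, 7.47, 7.92 and 6.98 CPM for those labelled flox and 10.04, 7.82, 9.25 and 6.25 for those labelled cKO. Con/ko libraries were all above LDRG libraries, and con/ko cKO 6 and 7 lay within the CFA range. For Creld2, con/ko minus LDRG was log2 0.86 (SE 0.15, adjusted p = 1.3e-04), and log2 0.60 (adjusted p = 6.5e-04) with offsets. For Creld2, CFA minus con/ko was log2 -0.73 (SE 0.20, adjusted p = 0.0098) in flox and log2 -0.62 (SE 0.19, adjusted p = 0.014) in cKO. The cKO call was lost without cKO con/ko 5, at log2 -0.41 (adjusted p = 0.071), without cKO CFA 4, at log2 -0.50 (adjusted p = 0.056), and with offsets, at log2 -0.25 (adjusted p = 0.22). The flox call was lost with offsets, at log2 -0.43 (adjusted p = 0.056). Without cKO con/ko 5 the cKO value shrank by over 1.5 times.

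Pdia6 (chr12:17266545-17284770, + strand) is a protein disulfide isomerase with an ERSE. Pdia6 stood at 98.7, 107 and 103 CPM in the LDRG flox libraries and at 98.5, 99.6 and 95.9 in the LDRG cKO libraries. Pdia6 in con/ko libraries measured 148, 145 and 135 CPM for flox and 139, 171, 124 and 132 for cKO. Pdia6 in CFA libraries measured 109, 116, 111 and 109 CPM for those labelled flox and 115, 103, 114 and 95.8 for those labelled cKO. The con/ko libraries lay above every LDRG and every CFA library. For Pdia6, con/ko minus LDRG was log2 0.50 (SE 0.06, adjusted p = 4.2e-06), and CFA minus con/ko was log2 -0.36 (SE 0.08, adjusted p = 0.0032) in flox and log2 -0.40 (SE 0.08, adjusted p = 5.9e-04) in cKO. Offsets left the first at log2 0.49 (adjusted p = 1.9e-07), and all 3 calls held under every alternative tried. Pdia6 shares exon sequence with Atp6v1c2 on the opposite strand, and the strand setting of the authors' counting was not known here.

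Manf (chr9:106838312-106891979, - strand) encodes a secreted ER stress protein with neurotrophic activity. Manf stood at 48.2, 57.4 and 57.0 CPM in the LDRG flox libraries and at 47.7, 49.3 and 46.6 in the LDRG cKO libraries. Manf in con/ko libraries measured 79.6, 78.5 and 67.9 CPM for flox and 76.8, 86.5, 66.8 and 62.9 for cKO. Manf in CFA libraries measured 53.2, 54.3, 64.1 and 59.9 CPM for those labelled flox and 62.6, 53.9, 57.8 and 48.0 for those labelled cKO. Each con/ko library was above each LDRG library, and the CFA flox range reached into the con/ko range. For Manf, con/ko minus LDRG was log2 0.54 (SE 0.08, adjusted p = 2.3e-05), and CFA minus con/ko was log2 -0.38 (SE 0.11, adjusted p = 0.011) in flox and log2 -0.40 (SE 0.10, adjusted p = 0.0042) in cKO, held under every alternative tried, though offsets took the cKO value to log2 -0.25 (adjusted p = 0.022). Manf shares exon sequence with Rbm15b on the same strand and Dcaf1 on the opposite strand, so the authors' counting could split its reads.

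Sdf2l1 (chr16:17130138-17132383, - strand) encodes an ER protein that works with BiP and its HSP40 partners. Sdf2l1 stood at 5.40, 6.32 and 6.86 CPM in the LDRG flox libraries and at 6.20, 5.57 and 5.48 in the LDRG cKO libraries. Sdf2l1 in con/ko libraries measured 8.22, 7.90 and 9.13 CPM for flox and 9.59, 12.2, 8.29 and 8.81 for cKO. Sdf2l1 in CFA libraries measured 5.84, 5.61, 6.09 and 6.48 CPM for those labelled flox and 7.44, 7.33, 8.11 and 6.89 for those labelled cKO. Con/ko levels were above all LDRG levels and overlapped only CFA libraries labelled cKO. Among CFA libraries, those labelled cKO were all above those labelled flox, though the difference did not pass adjustment. For Sdf2l1, con/ko minus LDRG was log2 0.60 (SE 0.09, adjusted p = 2.8e-05), and log2 0.23 (adjusted p = 0.015) with offsets. For Sdf2l1, CFA minus con/ko was log2 -0.49 (SE 0.12, adjusted p = 0.0050) in flox and log2 -0.39 (SE 0.11, adjusted p = 0.011) in cKO, and with offsets log2 -0.11 (adjusted p = 0.46) and log2 0.07 (adjusted p = 0.61), so both calls depended on that setting and the cKO value changed sign.

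Sec61b (chr4:47474658-47483242, + strand) was scarce. Sec61b stood at 1.93, 1.94 and 1.58 CPM in the LDRG flox libraries and at 1.70, 1.93 and 1.503 in the LDRG cKO libraries. Sec61b in con/ko libraries measured 2.50, 2.53 and 3.07 CPM for flox and 2.44, 3.65, 1.82 and 2.66 for cKO. Sec61b in CFA libraries measured 1.56, 1.80, 1.79 and 2.13 CPM for those labelled flox and 1.82, 1.75, 2.12 and 1.68 for those labelled cKO. Con/ko libraries were above LDRG libraries except cKO con/ko 6, at 1.82 CPM. For Sec61b, con/ko minus LDRG was log2 0.60 (SE 0.14, adjusted p = 0.0021), which fell to log2 0.08 (adjusted p = 0.64) with offsets. For Sec61b, CFA minus con/ko was log2 -0.57 (SE 0.19, adjusted p = 0.030) in flox and log2 -0.52 (SE 0.18, adjusted p = 0.029) in cKO. With offsets these became log2 -0.08 (adjusted p = 0.77) and log2 0.06 (adjusted p = 0.80), and against con/ko libraries with the letter F alone the flox value was log2 -0.47 (adjusted p = 0.071). The flox call was lost without flox CFA 1, 2 or 3 or flox con/ko 6, the largest shift being to log2 -0.47 (adjusted p = 0.12). The cKO call was lost without cKO CFA 1, 2 or 4 or cKO con/ko 5, the largest shift being to log2 -0.32 (adjusted p = 0.14).

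The other chaperones are given by range. Over all libraries, Hyou1 ran from 91.6 to 107 CPM, Dnajc3 from 98.8 to 122, and Dnajb11 (ERdj3, a BiP partner) from 45.4 to 64.3. Pdia4, another disulfide isomerase, ran from 52.3 to 72.9 CPM, and Ero1b, the oxidase that recharges the isomerases, from 19.9 to 34.9, its lowest library being cKO con/ko 4. None of these 5 was called in any comparison as fitted. With offsets Dnajc3 was called higher in con/ko than in LDRG, at log2 0.24 (adjusted p = 3.5e-04), and lower in CFA than in con/ko, at log2 -0.18 (adjusted p = 0.036) in flox and log2 -0.17 (adjusted p = 0.038) in cKO. As fitted, its CFA minus con/ko values were log2 0.03 (SE 0.05, adjusted p = 0.75) and log2 0.11 (SE 0.05, adjusted p = 0.076), and without con/ko cKO 5 the cKO value was called higher, at log2 0.15 (adjusted p = 0.016), so the direction of its call depended on the setting. Against LDRG, 10 of the 13 chaperones in flox and 12 of 13 in cKO had CFA values above 0, with medians of 0.09 and 0.15 against 0.00 and 0.00 over all genes, none called. Summed over the 13, levels were 1313 to 1387 CPM in LDRG, 1453 to 1580.1 in CFA and 1299 to 1645 in con/ko libraries. Hsp90b1 and Hspa5 weighed most in this sum, with medians of 450 and 360 CPM over all libraries against 1453 for the sum. Each of the other chaperones had overlapping ranges in LDRG and CFA. Summed neutrophil markers, at 1.55 to 5.45 and 35.0 to 115 CPM, and fibroblast and meningeal markers, at 749 to 923 and 1106 to 1623, were also higher in CFA than in LDRG libraries. Their part in the chaperone values was not tested.

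Library 5 of the con/ko cKO group stood apart in the chaperones, and in its counts as a whole. Chi-square per degree of freedom between pairs of libraries was 75.9, 111 and 150 against libraries 4, 6 and 7. It was 28.6 to 69.5 between those 3. The share of all genes highest in library 5 was not counted. Library 5 held the highest level of its group of 4 for 12 of the 13 chaperones. Its median there was 0.28 on the log2 scale over the group's median. That median was 0.01 over 6 degradation factors, -0.15 over the sensors and -0.04 over the PERK and ATF4 genes. In library 5, Hspa5 was 406 CPM, against 299 to 344 in the other 3, and Sdf2l1 was 12.2 against 8.29 to 9.59. Hyou1 was the exception and lowest there, at 96.7 CPM. Summed Schwann cell markers in that library were 9952 CPM, against 5580.4 to 6087 in the others. Fibroblast and meningeal markers summed to 2417 against 1512 to 1704. Immediate early genes, a list of 7, summed to 228 against 153 to 182 CPM. Fos, picked from that list, was 18.1 against 4.47 to 5.63 CPM. Their part in the chaperone levels was not tested. Without that library, 7 members rose and 4 fell in CFA cKO against con/ko (all genes: 17.4% and 18.7%).

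Of the 7 degradation factors, Sel1l (chr12:91806043-91849157, - strand), the adaptor that carries the ubiquitin ligase HRD1, was the one member called in CFA flox against LDRG. Sel1l stood at 156, 152 and 158 CPM in the LDRG flox libraries and at 158, 157 and 163 in the LDRG cKO libraries. Sel1l in con/ko libraries measured 150.2, 153 and 156 CPM for flox and 157, 145, 155 and 156 for cKO. Sel1l in CFA libraries measured 182, 185, 165 and 175 CPM for those labelled flox and 171, 185, 178 and 168 for those labelled cKO. All 8 CFA libraries were above all 13 untreated libraries. For Sel1l, CFA minus LDRG was log2 0.19 (SE 0.05, adjusted p = 0.026) in flox and log2 0.14 (SE 0.05, adjusted p = 0.12) in cKO. The flox call was lost without flox CFA 1, at log2 0.17 (adjusted p = 0.087), flox CFA 2, at log2 0.17 (adjusted p = 0.078), or any of LDRG flox 1, 2 and 3, at log2 0.19 (adjusted p = 0.085), log2 0.17 (adjusted p = 0.15) and log2 0.20 (adjusted p = 0.056). It was lost with offsets too, at log2 0.10 (adjusted p = 0.12). The transcript of Sel1l, at 6300 bases, belongs to the longest of the 4 groups by length, whose median also rose in CFA flox against LDRG. For Sel1l, CFA minus con/ko was log2 0.21 (SE 0.05, adjusted p = 0.0020) in flox and log2 0.20 (SE 0.04, adjusted p = 0.0012) in cKO, but log2 0.09 (adjusted p = 0.12) and log2 0.08 (adjusted p = 0.12) with library totals alone, and log2 0.07 (adjusted p = 0.14) and log2 0.03 (adjusted p = 0.47) with offsets. The difference between genotypes in this response was log2 -0.03 (SE 0.05, adjusted p = 1.0).

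Derl2 (chr11:71007164-71019841, - strand), a derlin that helps move misfolded proteins out of the ER, had separate levels within groups. Derl2 stood at 59.3, 61.5 and 57.6 CPM in the LDRG flox libraries and at 53.4, 60.2 and 12.9 in the LDRG cKO libraries. Derl2 in con/ko libraries measured 44.2, 26.1 and 25.8 CPM for flox and 48.8, 26.1, 24.0 and 24.6 for cKO. Derl2 in CFA libraries measured 52.3, 51.1, 55.7 and 54.5 CPM for those labelled flox and 14.5, 53.7, 19.9 and 55.3 for those labelled cKO. The low libraries were cKO LDRG 3, cKO CFA 1 and cKO CFA 3, and in the con/ko set all but flox 4 and cKO 4 were low. Both genotypes held low con/ko libraries, while in LDRG and CFA the low ones were labelled cKO. The differences were log2 -0.27 (SE 0.31, adjusted p = 0.93) in untreated and log2 -0.56 (SE 0.39, adjusted p = 0.94) in CFA libraries, so that neither passed against this spread. Mis12, which shares exon sequence with Derl2 on the opposite strand, ranged from 31.9 to 50.3 CPM and did not split in that way. Derl2 was singled out after its values were seen. Con/ko minus LDRG, at log2 -0.67 (SE 0.33, adjusted p = 0.11), was called without cKO LDRG 3, at log2 -0.89 (adjusted p = 0.018).

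The other degradation factors varied less than Derl2. Herpud1, a membrane scaffold of the degradation machinery with an ERSE-II, was among them. Herpud1 stood at 45.6, 47.0 and 49.1 CPM in the LDRG flox libraries and at 46.4, 49.0 and 46.8 in the LDRG cKO libraries. Herpud1 in con/ko libraries measured 51.2, 47.5 and 47.1 CPM for flox and 48.9, 59.0, 51.5 and 51.1 for cKO. Herpud1 in CFA libraries measured 44.4, 45.4, 48.0 and 45.2 CPM for those labelled flox and 48.4, 45.9, 47.2 and 44.2 for those labelled cKO. All con/ko cKO libraries were above all CFA libraries labelled cKO, and the LDRG range overlapped both sets. For Herpud1, CFA minus con/ko was log2 -0.18 (SE 0.06, adjusted p = 0.015) in cKO, a call lost without cKO con/ko 5, at log2 -0.12 (adjusted p = 0.056), without cKO CFA 4, at log2 -0.16 (adjusted p = 0.050), and with offsets, where the value was log2 0.05 (adjusted p = 0.35). With library totals alone it was log2 -0.29 (adjusted p = 0.0010). Syvn1, which encodes HRD1, ranged from 43.5 to 60.8 CPM, Edem1, a lectin that marks misfolded glycoproteins, from 40.9 to 60.3, and Derl1 from 68.1 to 98.9. None of these 3 was called in any comparison as fitted. For Syvn1, con/ko minus LDRG moved from log2 -0.11 (SE 0.06, adjusted p = 0.16) to log2 -0.23 (adjusted p = 0.0012) with offsets, a call.

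Derl3, the derlin of secretory cells, was under 1 CPM everywhere. Derl3 stood at 0.341, 0.430 and 0.171 CPM in the LDRG flox libraries and at 0.259, 0.185 and 0.363 in the LDRG cKO libraries. Derl3 in con/ko libraries measured 0.372, 0.252 and 0.476 CPM for flox and 0.695, 0.315, 0.867 and 0.833 for cKO. Derl3 in CFA libraries measured 0.262, 0.259, 0.468 and 0.0442 CPM for those labelled flox and 0.227, 0.134, 0.433 and 0.434 for those labelled cKO. The groups overlapped, from the lowest library, flox CFA 4, to the highest, con/ko cKO 6, and no comparison called it. Mzb1, a plasma cell gene, was at 0 in all con/ko flox libraries, and 8 plasma and B cell markers summed to 34.9 to 56.9 CPM in LDRG, 41.9 to 56.0 in CFA and 50.9 to 148 in con/ko libraries.

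Among the sensors, Eif2ak3 (chr6:70844515-70905245, + strand), the kinase PERK, was the member that separated the sets. Eif2ak3 stood at 75.4, 67.9 and 74.7 CPM in the LDRG flox libraries and at 74.4, 67.3 and 69.4 in the LDRG cKO libraries. Eif2ak3 in con/ko libraries measured 52.0, 64.3 and 63.3 CPM for flox and 52.8, 55.0, 61.5 and 58.2 for cKO. Eif2ak3 in CFA libraries measured 70.3, 75.6, 73.0 and 76.2 CPM for those labelled flox and 66.0, 70.6, 66.5 and 67.4 for those labelled cKO. Each con/ko library was below each LDRG and CFA library. For Eif2ak3, con/ko minus LDRG was log2 -0.29 (SE 0.05, adjusted p = 1.4e-04), and CFA minus con/ko log2 0.30 (SE 0.07, adjusted p = 0.0034) in flox and log2 0.25 (SE 0.06, adjusted p = 0.0054) in cKO. The cKO call was lost with library totals alone, at log2 0.14 (adjusted p = 0.087), and the others held under every alternative tried, at log2 -0.19 (adjusted p = 0.0040) between the sets and log2 0.19 (adjusted p = 0.037) in flox with that scaling.

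Xbp1, the factor spliced by IRE1, had overlapping levels in the 3 sets. Xbp1 stood at 66.8, 66.4 and 71.2 CPM in the LDRG flox libraries and at 63.1, 64.2 and 69.6 in the LDRG cKO libraries. Xbp1 in con/ko libraries measured 72.1, 74.8 and 74.0 CPM for flox and 66.7, 87.8, 62.4 and 61.9 for cKO. Xbp1 in CFA libraries measured 63.4, 63.8, 66.5 and 62.1 CPM for those labelled flox and 68.4, 61.0, 64.6 and 59.7 for those labelled cKO. The highest library was con/ko cKO 5, and no comparison called Xbp1 as fitted. With library totals alone it was called higher in con/ko than in LDRG, at log2 0.21 (adjusted p = 0.023), and lower in CFA than in con/ko, at log2 -0.32 (adjusted p = 0.017) in flox and log2 -0.25 (adjusted p = 0.032) in cKO.

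Ern1, which encodes IRE1, lay between 14.7 and 23.3 CPM and was not called as fitted. Atf6 lay between 54.2 and 81.1 CPM and was lower in con/ko than in LDRG, by log2 -0.14 (SE 0.06, adjusted p = 0.048). That call was lost on leaving out any of LDRG flox 1 and 3, LDRG cKO 1 to 3, con/ko flox 4 and 5 and con/ko cKO 4, 5 and 6, with values from log2 -0.15 (adjusted p = 0.053) to log2 -0.10 (adjusted p = 0.072), and with offsets, at log2 -0.02 (adjusted p = 0.73). It was also lost with RLE factors, at log2 -0.14 (adjusted p = 0.055), with library totals alone, at log2 -0.04 (adjusted p = 0.61), and with both other filters on low counts, at log2 -0.14 (adjusted p = 0.056) and log2 -0.10 (adjusted p = 0.16). Against con/ko libraries with the letter M or L alone it was log2 -0.05 (adjusted p = 0.51) and log2 -0.04 (adjusted p = 0.62), so that 5 of 22 settings, the fit with all libraries included, called Atf6.

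In the PERK and ATF4 branch, Atf4 (chr15:80255184-80257541, + strand) itself is controlled mainly at translation, which counts of RNA do not show. Atf4 stood at 148, 153 and 146 CPM in the LDRG flox libraries and at 147, 149 and 142 in the LDRG cKO libraries. Atf4 in con/ko libraries measured 126, 125 and 129.7 CPM for flox and 116, 125, 119.6 and 129 for cKO. Atf4 in CFA libraries measured 117, 141, 159 and 148 CPM for those labelled flox and 145, 133, 144 and 129.8 for those labelled cKO. Con/ko libraries were all below LDRG libraries, and the CFA range took in both. For Atf4, con/ko minus LDRG was log2 -0.24 (SE 0.05, adjusted p = 0.0011), log2 -0.41 (adjusted p = 6.6e-07) with offsets and log2 -0.14 (adjusted p = 0.051) with library totals alone. For Atf4, CFA minus con/ko was log2 0.15 (SE 0.07, adjusted p = 0.12) in flox and log2 0.17 (SE 0.07, adjusted p = 0.051) in cKO, not called as fitted. With offsets both were called, at log2 0.38 (adjusted p = 1.5e-04) and log2 0.45 (adjusted p = 1.3e-05). The flox rise was also called without flox CFA 1, at log2 0.23 (adjusted p = 0.0042), and in cKO without cKO CFA 4 or cKO con/ko 7, at log2 0.20 (adjusted p = 0.043) and log2 0.20 (adjusted p = 0.043).

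Asns (chr6:7675169-7693254, - strand), the ATF4 target that makes asparagine, followed Atf4 in direction. Asns stood at 207, 197 and 219 CPM in the LDRG flox libraries and at 202, 203 and 218 in the LDRG cKO libraries. Asns in con/ko libraries measured 163, 170.1 and 148 CPM for flox and 173, 166, 173 and 169 for cKO. Asns in CFA libraries measured 174, 203, 203 and 208 CPM for those labelled flox and 201, 193, 188 and 173 for those labelled cKO. Each con/ko library was below each LDRG library, and none exceeded the lowest CFA library, though the highest con/ko and the lowest CFA library were nearly equal. For Asns, con/ko minus LDRG was log2 -0.33 (SE 0.05, adjusted p = 1.9e-05) and CFA minus con/ko log2 0.29 (SE 0.07, adjusted p = 0.0023) in flox, both held under every alternative tried, the latter at log2 0.18 (adjusted p = 0.042) with library totals alone. In cKO it was log2 0.15 (SE 0.06, adjusted p = 0.055), called with offsets, at log2 0.20 (adjusted p = 0.017), and without cKO CFA 4, at log2 0.19 (adjusted p = 0.024).

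Atf5 (chr7:44812256-44816658, - strand), a relative of ATF4 that is also induced through PERK, went the other way. Atf5 stood at 26.6, 28.5 and 29.4 CPM in the LDRG flox libraries and at 26.4, 28.8 and 24.0 in the LDRG cKO libraries. Atf5 in con/ko libraries measured 43.3, 38.8 and 41.0 CPM for flox and 38.8, 44.0, 38.3 and 33.0 for cKO. Atf5 in CFA libraries measured 26.3, 29.4, 36.2 and 34.8 CPM for those labelled flox and 35.2, 27.9, 35.9 and 29.4 for those labelled cKO. Con/ko libraries were all above LDRG libraries and overlapped the CFA range. For Atf5, con/ko minus LDRG was log2 0.54 (SE 0.09, adjusted p = 5.3e-05), and log2 0.26 (adjusted p = 0.0013) with offsets. For Atf5, CFA minus con/ko was log2 -0.37 (SE 0.12, adjusted p = 0.019) in flox, lost without flox CFA 1, flox CFA 2 or con/ko flox 4, at log2 -0.30 (adjusted p = 0.058), log2 -0.34 (adjusted p = 0.053) and log2 -0.33 (adjusted p = 0.072), and with offsets at log2 -0.07 (adjusted p = 0.53). In cKO it was log2 -0.26 (SE 0.11, adjusted p = 0.063). Atf5 shares exon sequence with Nup62 and Il4i1 on the opposite strand.

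Chac1, an ATF4 target that degrades glutathione, was scarce. Chac1 stood at 5.33, 7.24 and 6.38 CPM in the LDRG flox libraries and at 5.36, 4.60 and 6.08 in the LDRG cKO libraries. Chac1 in con/ko libraries measured 5.16, 4.31 and 4.23 CPM for flox and 4.37, 4.12, 5.67 and 4.33 for cKO. Chac1 in CFA libraries measured 3.55, 4.32, 5.56 and 4.72 CPM for those labelled flox and 5.79, 5.43, 4.87 and 4.22 for those labelled cKO. The sets overlapped, from flox CFA 1 as the lowest library to LDRG flox 2 as the highest. For Chac1, con/ko minus LDRG was log2 -0.34 (SE 0.12, adjusted p = 0.027), lost without LDRG cKO 3, at log2 -0.29 (adjusted p = 0.078), LDRG flox 2, at log2 -0.29 (adjusted p = 0.076), con/ko flox 5, at log2 -0.32 (adjusted p = 0.058), or con/ko flox 6, at log2 -0.31 (adjusted p = 0.062). It was lost also with library totals alone, at log2 -0.23 (adjusted p = 0.13), and with con/ko libraries of the letter M alone, at log2 -0.34 (adjusted p = 0.13). With offsets it was log2 -0.58 (adjusted p = 2.9e-04), and CFA minus con/ko in cKO went from log2 0.13 (SE 0.15, adjusted p = 0.52) to log2 0.47 (adjusted p = 0.014), a call.

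Trib3, a pseudokinase that restrains ATF4, was also scarce. Trib3 stood at 3.89, 3.40 and 3.29 CPM in the LDRG flox libraries and at 3.51, 3.17 and 3.04 in the LDRG cKO libraries. Trib3 in con/ko libraries measured 3.78, 3.35 and 3.24 CPM for flox and 3.85, 3.01, 3.06 and 3.99 for cKO. Trib3 in CFA libraries measured 2.02, 3.22, 3.39 and 3.66 CPM for those labelled flox and 2.83, 2.69, 3.63 and 2.81 for those labelled cKO. The sets overlapped, flox CFA 1 was the lowest library, and no comparison called Trib3. Sesn2, a regulator of growth signalling, lay between 4.10 and 7.15 CPM, also with no call. Ppp1r15a (GADD34), which reverses PERK's block of translation, differed by log2 -0.30 (SE 0.10, adjusted p = 0.027) in CFA minus con/ko cKO libraries. That call was lost without con/ko cKO 7, the highest library at 51.5 CPM, to log2 -0.16 (adjusted p = 0.13), and without cKO CFA 2 or 4, at log2 -0.28 (adjusted p = 0.066) and log2 -0.27 (adjusted p = 0.075). The largest shift came with offsets, to log2 -0.07 (adjusted p = 0.65), and con/ko libraries with the letter F alone gave log2 -0.15 (adjusted p = 0.18).

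Further genes not called with all libraries were called when 1 library was left out. Between the name sets, con/ko minus LDRG, Edem1 was called without con/ko flox 6, at log2 -0.24 (adjusted p = 0.021), and without con/ko cKO 7, at log2 -0.25 (adjusted p = 0.0019). Syvn1 was called without con/ko flox 4, at log2 -0.18 (adjusted p = 0.011), and Ern1 without con/ko cKO 5, at log2 0.21 (adjusted p = 0.039). Herpud1 and Ppp1r15a were called without con/ko cKO 4, at log2 0.11 (adjusted p = 0.042) and log2 0.21 (adjusted p = 0.031). Ero1b was called without con/ko cKO 4, 5 or 7, at log2 -0.13 (adjusted p = 0.021), log2 -0.25 (adjusted p = 0.014) and log2 -0.22 (adjusted p = 0.0499). In CFA minus con/ko cKO libraries, leaving out con/ko cKO 5 gave calls for Hsp90b1, at log2 0.23 (adjusted p = 0.0041), Dnajc3, at log2 0.15 (adjusted p = 0.016), and Ero1b, at log2 0.30 (adjusted p = 0.032). Leaving out con/ko cKO 7 gave calls for Edem1, at log2 0.26 (adjusted p = 0.014), Atf6, at log2 0.23 (adjusted p = 0.019), and Atf5, at log2 -0.33 (adjusted p = 0.025). Atf5 was also called there without CFA cKO 1 or 3, at log2 -0.31 (adjusted p = 0.046) and log2 -0.32 (adjusted p = 0.040), and Atf6 in CFA minus con/ko flox libraries without CFA flox 3, at log2 0.22 (adjusted p = 0.040).

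GC and length offsets changed calls in both directions. In con/ko minus LDRG they added Hspa5, Hsp90b1, Dnajc3 and Syvn1 and removed Sec61b and Atf6. In CFA minus con/ko they left 7 calls in flox and 8 in cKO, where 10 and 11 were made without them. They added Atf4 and, as lower, Dnajc3 in both genotypes, and Chac1 and Asns in cKO. They removed Sdf2l1, Creld2, Sec61b and Sel1l in both genotypes, Atf5 in flox, and Hspa5, Herpud1 and Ppp1r15a in cKO. With offsets 17.0% of all genes rose and 15.1% fell in flox, and 16.3% rose and 16.3% fell in cKO. Library totals alone added Hsp90b1, Dnajc3, Pdia4, Hyou1, Herpud1, Ern1, Xbp1 and Ppp1r15a in con/ko minus LDRG, all as higher, and removed Atf4, Atf6 and Chac1. That scaling added as lower Herpud1 and Xbp1 in CFA minus con/ko flox, and Derl1, Xbp1 and Atf5 in cKO.

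RLE factors, DESeq2, the other filters and single letter codes added some calls as well. In con/ko minus LDRG these were Dnajc3, Ero1b, Herpud1, Syvn1, Ern1 and Ppp1r15a. In CFA minus con/ko they were Xbp1 in flox, and Hsp90b1, Dnajc3, Edem1, Atf6, Xbp1, Atf4, Asns and Atf5 in cKO. Each was called under at least 1 of these settings and not under all.

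Other genes of the same pathways were read from 4 lists: 30 further ER folding genes, 16 of ER degradation, 16 of sensor signalling and 34 ATF4 targets, of which 32 were tested. None of the genes tested from these lists was called in either genotype comparison or in the interaction. CFA against LDRG called none of the folding, degradation and signalling genes in either genotype. Among the 32 ATF4 targets, 3 rose and 2 fell in flox, where 1.94% of all genes rose and 1.8% fell, and the median of the list was -0.10 against 0.00 over all genes. The rises were Slc7a11 (cystine transporter) by log2 2.03 (SE 0.38, adjusted p = 0.0063), Cebpb (a transcription factor of inflammation) by log2 1.402 (SE 0.29, adjusted p = 0.010) and Nupr1 (a stress-inducible cofactor) by log2 0.74 (SE 0.14, adjusted p = 0.0066). Atf3, a factor induced by nerve injury, changed by log2 -2.10 (SE 0.34, adjusted p = 0.0026), and Vegfa, a vascular growth factor named to complete the count after its value was seen, log2 -0.25 (SE 0.07, adjusted p = 0.049). In cKO, 2 rose, against 0.886% of all genes: Cebpb by log2 2.40 (SE 0.30, adjusted p = 0.0014) and Nupr1 by log2 1.04 (SE 0.14, adjusted p = 0.0026). Con/ko against LDRG called 13 of the 30 folding genes (6 higher, 7 lower), 9 of the 16 degradation genes (2 and 7), 10 of the 16 signalling genes (6 and 4) and 21 of the 32 ATF4 targets (9 and 12). Of all genes 25.7% were higher and 23.0% lower there. The medians were 0.01, -0.01, 0.03 and 0.04 in the same order, against 0.02 over all genes, and nothing particular to the lists is read from these counts.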

How the data were processed

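Poly-A RNA of whole ganglia was sequenced as paired 150-base reads, per the labels' protocols. The authors deposited raw read counts per gene in 2 tables, of 14 libraries (24524 rows) and 7 libraries (24512 rows), and the 24381 shared genes were used, except that the comparison among the CFA libraries used all genes of its table. Reads were handled with fastp 0.23.2, BWA 2.2.1, SAMtools 1.14 and DESeq2 1.40.2 on mm10, per the submitters' processing notes. The strand setting and the counting tool are not given in the sources used here. Titles gave each sample's genotype and treatment, because the genotype characteristic names the Cre line throughout.

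Counts were filtered with filterByExpr (minimum count 10, total 15), scaled by TMM and tested with edgeR 4.0.16 in R 4.3.3 (quasi-likelihood F tests, Benjamini-Hochberg adjustment over all genes tested, calls at 0.05). Untreated genotypes were fitted on 13 libraries with name set as a term, CFA genotypes on 8, and the interaction and set contrasts as group means of all 21. The tests were checked on simulated counts. Gene positions and exon lengths are from GENCODE vM21 and promoter windows from RefSeq. Genes named with every value are the 12 members with the smallest adjusted p in any comparison and 11 named by role (4 are in both, and Ddit3 was not analysed here), besides Derl2. The members and lists were chosen with earlier results of these data known. Alternatives were RLE factors, library totals, 2 other filters, DESeq2 1.42.0, single name sets or letter codes, a replicate block, and each library left out in turn. Offsets for GC and transcript length, from lowess trends, were chosen after seeing the data.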

Additional observations from a re-analysis of the deposited data

Results flagged for a closer look

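A set here is the 4 values of 1 gene in 1 group of libraries. Single values stood away from the rest in 7 of the 93 sets examined, where chance gives about 1 in 20. The sets share libraries and are not independent. In the con/ko cKO group, library 5 held Pdia4 at 72.9 CPM, against 55.0 to 57.8 in the other 3, and Sel1l at 145 CPM, against 155 to 157. In the same group, library 4 held Derl2 at 48.8 CPM, against 24.0 to 26.1, and library 6 held Chac1 at 5.67 CPM, against 4.12 to 4.37. Among CFA libraries labelled cKO, library 4 held Hsp90b1 at 569 CPM, against 473 to 483, and library 3 held Trib3 at 3.63 CPM, against 2.69 to 2.83. Among CFA libraries labelled flox, library 1 held Asns at 174 CPM, against 203 to 208.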

How the results depend on the processing

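The counts of 0 members called for the untreated genotype, the CFA genotype and the interaction were also 0 under every alternative run, each library left out included. In CFA against LDRG flox, the 1 member called (Sel1l) became 0 with the replicate block, where Sel1l was at log2 0.19 (adjusted p = 0.32), and 0 with GC and length offsets, and 0 to 1 when single libraries were left out. In CFA against LDRG cKO, the 0 members became 3 with DESeq2 and 2 with GC and length offsets (Sdf2l1 and Atf5), while calls over all 16928 genes went from 211 to 834 and 301 (1.78%). Leaving out single libraries gave 8 to 10 calls in CFA against con/ko flox, 8 to 13 in cKO and 10 to 14 between the name sets, against 10, 11 and 12. Offsets turned Dnajc3 to -0.18 and -0.17 in CFA against con/ko flox and cKO, and in cKO Sdf2l1 to 0.070, Sec61b to 0.063 and Herpud1 to 0.049 (log2), and the cause was not tested.

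Same-numbered libraries correlated at -0.15 to 0.24, so the numbers were not taken as pairs. With the replicate block, 0 members were called for the untreated genotype, the CFA genotype and both CFA contrasts with LDRG. No block was fitted for the interaction, nor where the compared groups share fewer than 2 numbers. Levels under about 3 CPM (Derl3, Sec61b) limit precision, as does the small number of libraries per group.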
